A study of Equus caballus with 32 samples.

Results

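The control arm of an equine osteoarthritis experiment is described here, as the change in its synovium between week 0 and week 10. Its members are the 16 libraries whose titles say Control, of 32 in all, taken from 8 horses with a library at each week and paired by the animal code in the titles. The other 16 libraries come from horses given iPAAG, a polyacrylamide hydrogel placed inside the joint. All 16 horses had osteoarthritis induced by cutting a fragment of bone and cartilage from the radial carpal bone of a randomly assigned middle carpal joint, while the opposite middle carpal joint had a sham arthroscopy.

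Synovium was sampled at week 0 through the arthroscope, ahead of the surgery on the bone, and at week 10 directly after death. Control horses therefore carried the fragment, the sham operation in the other joint and the passage of time, but no hydrogel. The series is described as placebo-controlled, and the labels do not say what the control joints received. They also do not say from which of the 2 carpal joints a library came, nor the age, sex or breed of the horses. Week, induced disease and the way of collecting the tissue cannot be told apart in this comparison. The biopsies were digested with collagenase and strained, and the RNA came from the recovered cells, so matrix and cells lost in digestion were not sampled. In such bulk samples, fewer cells of a type and less RNA per cell cannot be told apart.

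Synovium is the soft tissue that lines a joint. Its surface layer is made of fibroblast-like cells, which secrete lubricin and hyaluronan into the joint fluid, and of macrophages, and it lies on a layer of loose tissue with blood vessels, nerves, fat and more fibroblasts. In osteoarthritis the lining commonly thickens, immune cells and vessels may increase, and synovial cells can release cytokines and matrix-degrading proteases. The deposited table lists horse genes by Ensembl identifier with no symbols, so no change below is assigned to any of these cell types or processes, and the tissue label could not be checked against marker genes. Genes are described by their counts, levels and consistency between horses, and 4 are named by identifier.

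Total counts in the control arm ran from 23088448 to 56476566 at week 0 and from 5428928 to 54155598 at week 10. Genes with at least 1 count, called detected, numbered 15682 to 16725 at week 0. At week 10 they numbered 16162 to 17410 in 6 horses, but 12018 in horse 2 and 11373 in horse 11. In these last 2 libraries, 829 and 960 of 10989 genes that were abundant at week 0 (mean log2 CPM of at least 2) had no count, against at most 2 in the other 14 control libraries. CPM is the count relative to 1000000 counts of its library, scaled here by library total and TMM factor, a correction for composition. Horse 2 had the lowest total of the arm, whereas horse 11 had 28614860 counts, more than horses 1 and 15 at the same week.

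**Figure D1:**
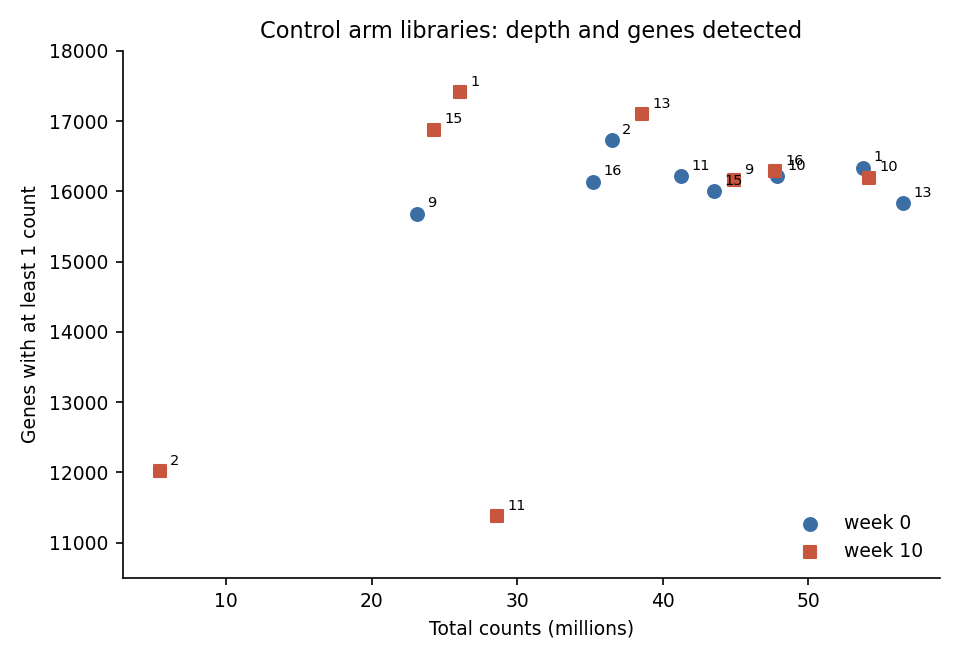
Genes with at least 1 count (vertical axis, which does not start at 0) against total counts (horizontal axis, in units of 1000000) for each control library, with the horse's number beside each point, circles for week 0 and squares for week 10. The week 10 libraries of horses 2 and 11, with 12018 and 11373 genes, lie below the other 14, which hold 15682 to 17410.

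With all 8 horses, genes detected per library differed by -715 ± 2544 between week 10 and week 0 (SD, n = 8, exact sign-flip permutation test, two-sided, adjusted p = 0.492). Without horses 2 and 11 the difference turned to 639 ± 518 more genes at week 10 (SD, n = 6, exact permutation, adjusted p = 0.141), and 5 of 6 horses had more. Thinned to the lowest total, 5428928 counts, horses 2 and 11 had 12018 and 11158 genes at week 10 and the other 6 had 14577 to 16032. Because these 2 libraries stood apart, the counts of changed genes, the changes of the named genes and the library measures are also given without horses 2 and 11.

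A gene is called changed when its adjusted p is under 0.05 in edgeR's quasi-likelihood test, in 1 model of the 32 libraries that has a term for each horse, with Benjamini-Hochberg adjustment over all genes tested. Of 15498 genes tested, 1700 (11%) changed in the control arm, 738 higher (4.76%) and 962 lower (6.21%) at week 10. When horses 2 and 11 were left out, 1985 of 15731 genes (12.6%) changed, 1049 higher (6.67%) and 936 lower (5.95%). Falls were thus the larger group with all horses, and rises were the larger group without those horses, the share of rises being 43.4% and 52.8%. Over all genes tested, the fitted log2 change had a median of -0.11 with all horses and of 0.02 without the pair. The count of 1700 was 3209 with DESeq2, 755 with the control arm fitted alone and 1017 without horse 15.

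Both sets of horses called 1306 genes (8.43% of those tested), 600 that rose (3.87%) and 706 that fell (4.56%). These shared genes were 76.8% of the calls with all horses and 65.8% of the calls without horses 2 and 11, and none had opposite signs. The median log2 fold change of the 600 was 1.27 with all horses and 1.37 without the pair. That of the 706 was -1.24 with all horses and -1.10 without the pair. The fits share the libraries of 6 horses, so this overlap is a description and no independent repeat.

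**Figure D2:**
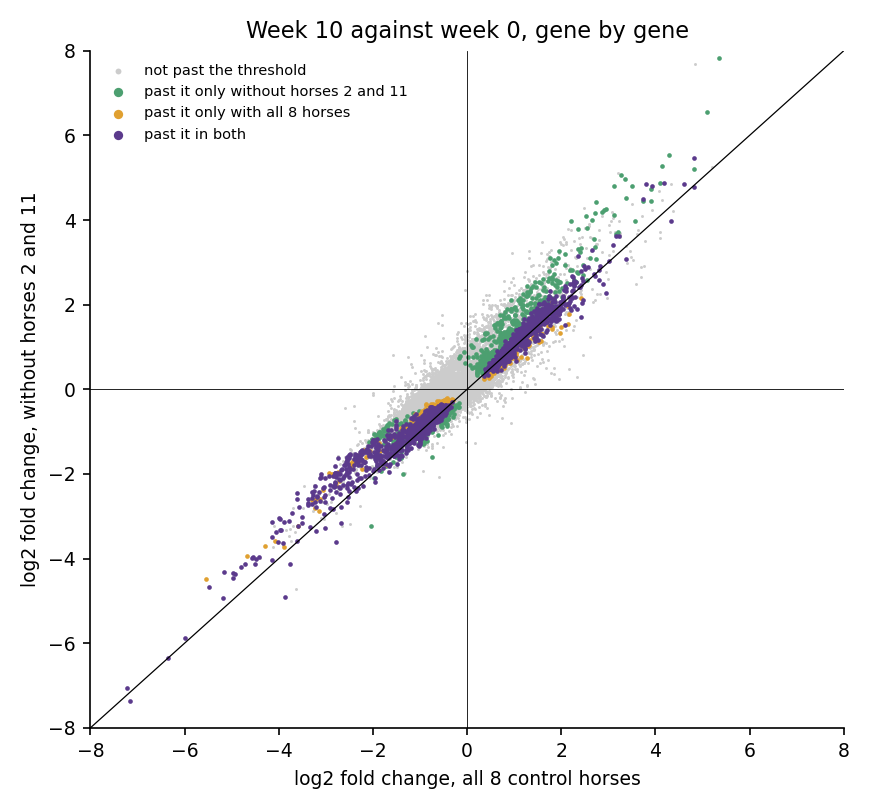
Each point is a gene, with its log2 fold change from week 0 to week 10 over all 8 control horses on the horizontal axis and without horses 2 and 11 on the vertical axis. The 1306 genes called in both lie near the diagonal, and genes called only without horses 2 and 11 lie mostly on the rising side, above it.

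Genes called in only 1 of the fits differed in the 2 libraries that stood apart. Only when all horses were in, 256 falls and 138 rises were called. In these 256 falls the median log2 change was -1.23 in horse 2 and -1.34 in horse 11, against -0.52 for the median of the other 6 horses. Over the 9108 tested genes with a negative fitted change, called or not, these medians were -1.10, -1.07 and -0.22, so the contrast was not particular to the 256, and calling genes only with the pair included also favours it. Only when horses 2 and 11 were left out, 445 rises and 229 falls were called, beside 5 genes that the fit with all horses did not test. The 445 rises had a median log2 change of 1.32 in the other 6 horses, but -0.40 in horse 2 and -1.27 in horse 11. Over the 6390 tested genes with a positive fitted change with all horses, these medians were 0.49, 0.31 and 0.12. Calling genes only without the pair by itself favours such a contrast, so it is a description. Of these 445 genes, 33.7% had no count in the week 10 library of horse 2 and 38.2% had none in that of horse 11. Among all genes tested those shares were 23.9% and 27.4%, but the 445 were less abundant. Their median of mean log2 CPM was 2.32, against 3.91 for all genes tested.

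A gene with no count at week 10 can hardly rise in that horse, and zeros among the 1306 shared genes lay mostly with the falling ones. In horse 2, 133 of the 706 falling genes had no count at week 10, against 11 of the 600 rising genes. In horse 11 these numbers were 151 and 5. The falling genes thus had no count in 18.8% and 21.4% of cases, against 28.5% and 31.5% of all tested genes with a negative fitted change. The rising genes had none in 1.83% and 0.833%, against 17.5% and 21.6% of all tested genes with a positive one. Both shared sets were more abundant than these backgrounds. The median of mean log2 CPM was 5.29 against 3.92 for falls and 5.07 against 3.90 for rises. The shares are therefore not compared at a like level, and the part of zeros in the falls was not tested. Over the other 6 horses the median log2 change of the 706 genes was -1.11.

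Larger changes were common among the genes called. With all horses, a change of at least 2-fold was called in 991 genes (6.39%), as a rise in 485 (3.13%) and as a fall in 506 (3.26%). Of the 15498 genes tested, 75 were called with a rise of at least 4-fold and 205 with such a fall. When horses 2 and 11 were left out, the 2-fold level was passed by 1201 genes (7.63%), with 737 rises (4.69%) and 464 falls (2.95%). The 4-fold level was then passed by 205 rises and 117 falls of 15731 genes tested. Falls of at least 4-fold therefore outnumbered such rises with all horses, and the order was the other way without the pair. Over all genes tested, called or not, the median log2 change was -0.53 in horse 2 and -0.52 in horse 11. It was 0.01 for the median of the other 6 horses. The part of this shift of whole libraries in the order was not tested.

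Calls were more frequent among the most abundant genes than among the least abundant. Of 2672 genes whose log2 CPM averaged under 0 over the 16 control libraries, 0.599% rose and 1.76% fell, with a median standard error of 1.03 on the log2 scale. Of 522 genes averaging 8 or more, 8.24% rose and 16.7% fell, with a median standard error of 0.23. The standard error was lowest between 6 and 8, at 0.18, and falls were about as frequent between 0 and 2 (3.84%) as between 2 and 4 (3.78%). When horses 2 and 11 were left out, the number of rises grew by the largest factor among the low genes. Rises under a mean log2 CPM of 0 went from 16 to 110, and those between 0 and 2 from 51 to 156. Between 6 and 8 they went from 176 to 179. Falls under 0 went from 47 to 32, and those between 2 and 4 from 120 to 192. The median standard error between 0 and 2 was 0.64 with all horses and 0.39 without the pair.

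Few of the shared changes were switches between a low and a measurable level. Among the 600 rising genes, 19 went from a mean under 1 CPM at week 0 to 1 CPM or more at week 10. Of the 706 falling genes, 39 went from 1 CPM or more to under 1 CPM. In contrast, 203 of the rising and 251 of the falling genes had a mean of at least 100 CPM at 1 of the weeks. These counts were not taken over all genes tested. Genes at low levels were filtered and seldom called. Of the 2672 tested genes averaging a log2 CPM under 0, 13 were among the 600 and 28 among the 706. The counts therefore describe the genes called and not how often such switches occurred at large.

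The shared genes made up a sizeable part of the counts. The 600 rising genes took a median of 3.73% of the counts of all genes tested at week 0, from 2.78% to 5.48%, and 9.27% at week 10, from 6.82% to 16.9%. The 706 falling genes took a median of 14.5% at week 0, from 12.7% to 17.8%, and 6.03% at week 10, from 2.77% to 9.31%. The ranges did not overlap between the weeks in either group. The highest share of rising genes and the lowest share of falling genes both belonged to the week 10 library of horse 11. In the other 6 horses the week 10 ranges were 6.82% to 12.5% and 4.85% to 9.31%. These genes were chosen for their change in the same libraries, so the shares are a description.

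Direction was shared by most horses among the genes called. These genes were called from the same horses, which by itself favours a shared direction and separated levels, so the shares are a description. Of the 1306 genes, 849 (65.0%) moved the same way in 8 of 8 horses, 375 of them up and 474 down, and 407 (31.2%) did so in 7 of 8. Over all genes tested, 1245 (8.03%) moved the same way in 8 of 8, 490 up (3.16%) and 755 down (4.87%). Of the genes called without horses 2 and 11, 1498 (75.7%) moved the same way in each of the other 6, against 2369 (15.3%) of all genes tested. Complete separation was rarer. For 90 of the 600 rising genes, every week 10 level lay above every week 0 level, and for 151 of the 706 falling genes every week 10 level lay below, while over all genes tested these counts were 94 (0.607%) and 171 (1.1%). In the 6 horses other than 2 and 11 they were 242 of 600 and 261 of 706, against 390 (2.52%) and 358 (2.31%) of all genes tested. Horse 9 moved the same way in 85.3% of the 1306 genes, but in 61.7% of the genes called without it.

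Among the genes meeting the rule for naming (called in both fits, mean log2 CPM of at least 2, the same direction in 8 of 8 horses), 342 rose and 396 fell. The top 2 in each direction, ranked by fitted log2 change, are given by identifier. What these genes encode is not given in the sources used here.

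ENSECAG00000004158 had the largest rise of the genes that met the rule. Its level at week 0 had a lowest value of 0 CPM, a median of 1.06 and a highest of 10.7 CPM, and at week 10 these were 4.87, 24.0 and 43.2 CPM. The groups overlapped because horse 2 stood at 10.7 CPM at week 0, above horse 11 at 4.87 and horse 1 at 7.18 CPM at week 10. In the other 6 horses the highest week 0 level was 1.92 CPM, below the lowest week 10 level of 7.18 CPM, so the groups did not overlap. Horse 15 had 0 counts at week 0, where 3 counts would be 0.0665 CPM, and 1070 counts at week 10, a level at least 631-fold higher. The fitted log2 rise was 4.18 (SE 0.97, edgeR adjusted p = 0.00925), and 4.88 (SE 1.09, adjusted p = 0.00971) without horses 2 and 11.

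ENSECAG00000053056 had the next largest rise. Its week 0 levels had a lowest value of 0.389 CPM, a median of 2.07 and a highest of 6.86 CPM, and its week 10 levels of 5.85, 14.8 and 77.8 CPM. The groups overlapped by a narrow margin, since horses 9 and 15 stood at 6.86 and 6.14 CPM at week 0 and horse 1 at 5.85 CPM at week 10. Horse 15 was the highest at week 10 by a wide margin, the next being horse 9 at 20.8 CPM. The fitted log2 rise was 3.09 (SE 0.47, edgeR adjusted p = 0.000634), and 3.40 (SE 0.55, adjusted p = 0.0015) without horses 2 and 11.

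ENSECAG00000013336 had the largest fall. Its level at week 0 had a lowest value of 22.9 CPM, a median of 200.2 and a highest of 273 CPM, against 0, 3.22 and 25.8 CPM at week 10. Horse 9 was the lowest at week 0 with 22.9 CPM, and horse 16 the highest at week 10 with 25.8 CPM, so the groups overlapped by these libraries alone. Horses 2 and 11 had 0 counts at week 10, from 3471 and 3978 counts at week 0. Taking 3 counts as the limit per library, these were levels at least 189-fold and 708-fold lower, as far as counting error goes. In these 2 libraries 829 and 960 of 10989 genes abundant at week 0 had no count. The limits may therefore not bound the true levels. The fitted log2 change was -5.49 (SE 0.82, edgeR adjusted p = 0.000526) with all horses, and -4.67 (SE 0.72, adjusted p = 0.00126) without horses 2 and 11.

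ENSECAG00000012936 had the next largest fall. Its week 0 levels had a lowest value of 6.06 CPM, a median of 35.9 and a highest of 66.7 CPM, and its week 10 levels of 0, 1.50 and 7.80 CPM. Horse 11 was the lowest at week 0, and horse 13 the highest at week 10, so the groups overlapped by these libraries alone. In the other 6 horses the lowest week 0 level was 25.3 CPM and the highest week 10 level 7.80 CPM, with no overlap. Horses 2 and 11 again had 0 counts at week 10, at least 71.2-fold and 45.2-fold lower on the same limit. That limit again covers counting error only and not the loss of genes in these 2 libraries. The fitted log2 change was -4.71 (SE 0.60, edgeR adjusted p = 0.000159) with all horses, and -4.14 (SE 0.52, adjusted p = 0.000531) without horses 2 and 11.

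**Figure D3:**
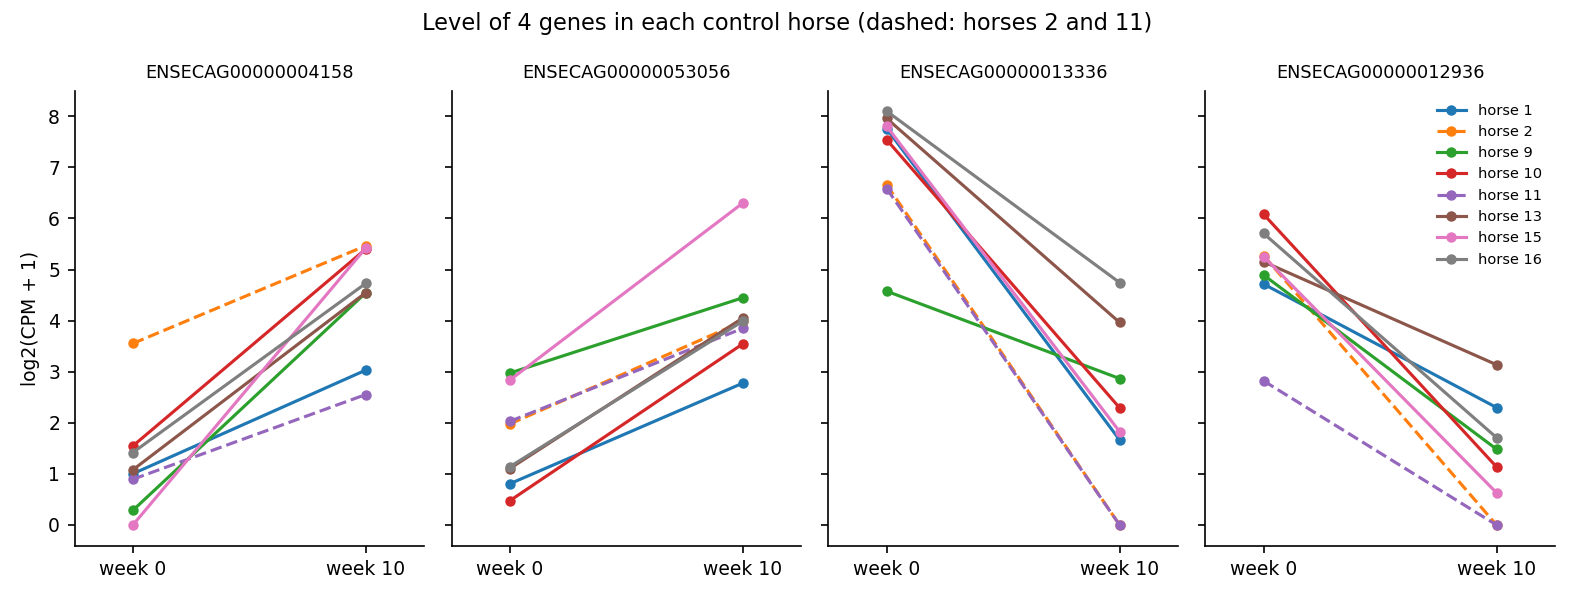
The level of the 4 named genes in each control horse at week 0 and week 10, as log2(CPM + 1), with 1 line per horse and dashed lines for horses 2 and 11. All lines rise in the 2 panels on the left and fall in the 2 on the right, and the shallowest fall of ENSECAG00000013336 is that of horse 9, from 22.9 to 6.29 CPM.

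How far the change of an individual horse followed that of the others was described by leaving that horse out. Genes were called for the control change of the other 7 control horses, in a model that kept the iPAAG libraries. Their direction was then read in the horse left out. Horses 15, 10, 13 and 1 moved the same way in 97.4%, 95.8%, 94.1% and 93.9% of these genes, between 1016 and 1347 in number. Horse 16 did so in 83.9% and horse 2 in 80.7%. Horse 11 did so in 74.6% and horse 9 in 61.7%. Over all genes tested, the same shares ran from 48.2% in horse 9 to 65.7% in horse 15, so each horse shared the direction of called genes more often than that of genes at large. Each fit behind these shares, and behind the positions given below, kept horse 2, horse 11 or both. Shares and positions were not taken without the pair.

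Horses 2, 9 and 11 were low in different ways. In horses 2 and 11 the falling genes fell in 93.0% and 83.9% of cases, while the rising genes rose in 70.8% and 63.8%. These 2 horses also fell at large, with a median log2 change over all genes tested of -0.53 and -0.52. Shares by direction over all genes were not taken, so this split may not be particular to the called genes. The genes for horse 2 were also called with horse 11 in the fit, and those for horse 11 with horse 2. In horse 9 the rising genes rose in 70.5% and the falling genes fell in 54.7%. The median log2 change of these falling genes was -0.07 in horse 9, against -1.07 in the fit to the others. Kept to abundant genes that changed at least 2-fold, the share in the same direction was 70.4% in horse 9 and 80.9% in horse 11. Abundance was averaged over all control libraries, those of the horse left out included.

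**Figure D4:**
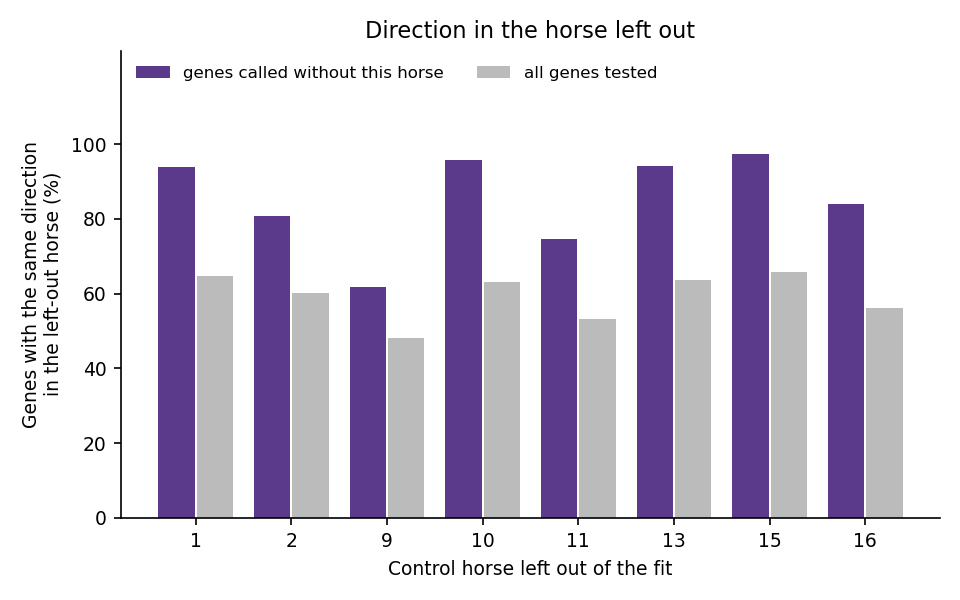
Percent of genes that moved, in the horse left out of the fit, in the direction fitted to the others, for genes called without that horse (dark bars) and for all genes tested (grey bars). Dark bars run from 61.7% in horse 9 to 97.4% in horse 15, and each stands above its grey bar.

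The libraries of each horse were then placed between the weeks of the others. For abundant genes called without the horse and changed at least 2-fold, the position is 0 at the median of the other horses at week 0 and 1 at their median at week 10. Abundance again included the libraries of the horse itself. Week 0 libraries had median positions from -0.241 in horse 10 to 0.363 in horse 1, and week 10 libraries from 0.434 in horse 16 to 1.48 in horse 15. In each horse the week 0 library lay below its own week 10 library. Over rising genes alone, the week 0 library of horse 1 lay at 0.539, above the week 10 library of horse 16 at 0.457. The step between the weeks was shortest in horse 9, from 0.209 to 0.465 over 970 genes, and in horse 16, from -0.169 to 0.434 over 825 genes. The week 10 libraries of horses 2 and 11 lay at 1.20 and 1.17, with falling genes at 1.54 and 1.77 and rising genes at 1.02 and 0.868.

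**Figure D5:**
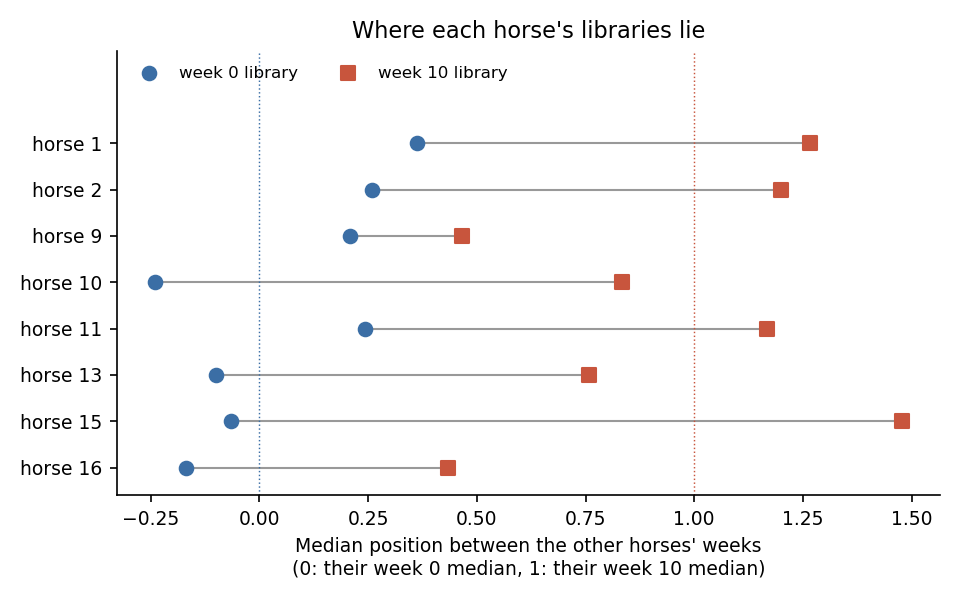
Median position of the week 0 library (circle) and week 10 library (square) of each control horse, over abundant genes called without that horse, on a scale where 0 is the week 0 median and 1 the week 10 median of the other horses. The longest line is that of horse 15, which ends at 1.48, and the shortest that of horse 9, which ends at 0.465.

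The size of the change also differed between horses. Over the 10716 genes whose log2 CPM averaged 2 or more in the control libraries, the share that changed at least 2-fold in either direction was 42.6% in horse 11 and 39.7% in horse 2. It was 30.9% in horse 15 and from 15.0% to 20.1% in the other 5. In horses 2 and 11, falls of this size outnumbered rises, 3025 to 1230 and 2895 to 1665. In horses 9, 10, 13 and 16 rises outnumbered falls, by 1247 to 755 in horse 9. The zeros of both week 10 libraries and the low total of horse 2 moved with these counts, and their part in them was not tested.

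Control libraries lay farther from each other at week 10 than at week 0. The distance of a library was the median, over genes tested, of the absolute difference of its log2 CPM from the median of the others in its group. It ran from 0.251 to 0.489 at week 0 and from 0.367 to 1.24 at week 10, and was higher at week 10 in 7 of 8 horses, the exception being horse 9. Each distance was taken from the other libraries of the group, so the differences of the horses are not independent. The test flipped the signs of these fixed differences, so the p-values of this measure are approximate. The difference was 0.319 ± 0.365 (SD, n = 8, sign-flip permutation test, two-sided, adjusted over 3 library measures, p = 0.0469). Without horses 2 and 11 it was 0.121 ± 0.126, higher in 5 of 6 horses, and did not pass (SD, n = 6, sign-flip permutation, adjusted p = 0.141, where the smallest raw p that 6 horses allow is 0.0313). With any single horse other than horse 9 left out of the test, the difference was 0.228 to 0.357 and the adjusted p 0.0938 (sign-flip permutation). In these runs the distances were still those measured with all 8 horses, so the horse left out stayed in the group medians. With 7 horses the smallest raw p is 0.0156, so a set that holds horse 9, the horse that went the other way, could not pass beside the p-values of the other measures. Total counts, the third measure, differed by -8495030 ± 19546500 (SD, n = 8, exact permutation, adjusted p = 0.387), and by -4045320 ± 20149500 without the pair (SD, n = 6, exact permutation, adjusted p = 0.656).

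The iPAAG horses had the same surgery. Their libraries took no part in the control change except in the estimate of the spread, the filter on low counts and the TMM factors. Tested directly, the iPAAG change minus the control change passed the threshold in edgeR for 0 of 15498 genes (0%), the lowest adjusted p being 0.496, while 617 genes had an unadjusted p under 0.05. DESeq2 called 12. Leaving out horses 2 and 11, edgeR called 0 of 15731 genes (0%), with 714 at an unadjusted p under 0.05. Of the 600 shared rising genes 99.0% also had a positive log2 fold change in the iPAAG arm, and of the 706 falling genes 97.6% a negative one, against 77.6% and 69.8% of all genes tested with these directions in the control arm. The median log2 fold change of the 600 was 1.27 in control and 0.75 in iPAAG horses, and that of the 706 was -1.24 and -0.68. At an unadjusted p under 0.05 for the difference stood 20.8% of the 1306 genes, against 3.98% of all tested. The genes were chosen on their control change, which by itself makes that change larger and the difference more frequent, so these values are no test between the arms. The 445 rises called only without horses 2 and 11 moved with the same sign in iPAAG horses in 96.6% of cases, and the 256 falls called only with all horses did so in 91.0%.

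For the named genes, the difference of the iPAAG change from the control change was -1.72 (SE 1.40) for ENSECAG00000004158 and -1.17 (SE 0.66) for ENSECAG00000053056 on the log2 scale. It was 1.87 (SE 1.02) for ENSECAG00000013336 and 1.34 (SE 0.75) for ENSECAG00000012936, each of the 4 with an edgeR adjusted p of 0.982. These genes were chosen for large control changes, which favours larger values in the control arm. In the iPAAG arm, ENSECAG00000012936 had a median of 24.5 CPM at week 0 and 2.59 CPM at week 10, with a log2 fold change of -3.37 (edgeR adjusted p = 0.00287). The iPAAG change of ENSECAG00000013336 was -3.62 (edgeR adjusted p = 0.0105) and that of ENSECAG00000053056 was 1.92 (adjusted p = 0.032). The value for ENSECAG00000004158 was 2.46, which did not pass the threshold there (edgeR adjusted p = 0.207).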

How the data were processed

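Polyadenylated RNA of digested synovium was sequenced in 32 libraries, of which the 16 control libraries are described. The deposited table holds raw counts per gene for 19418 identifiers, whole numbers with 33 values in 6 genes written with 3 significant digits. STAR 2.7.10b, limma 3.62.2 and the build EquCab3.0 are listed, without their roles, per the submitters' processing notes. How reads were counted, on which annotation and with what strand setting is not stated in the sources used here, so overlapping genes and near-identical copies are uncertain. All columns were matched by name.

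Tests used edgeR 4.0.16 in R 4.3.3 with TMM factors, its low-count filter by group, the horse as a block and a week 10 term per arm. The log2 CPM values used a prior count of 2. Horses are paired by animal code. The 2 libraries of a horse deviated from their group means with a correlation of median 0.0673, from -0.252 to 0.230, over 0.1 in 2 of 8 horses. The week 0 library correlated most with the week 10 library of its own horse in 2 of 8 horses. The counts thus gave little sign of the pairing, which rests on the titles. The SE is the log2 fold change over the square root of F.

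The alternatives were DESeq2 1.42.0, limma 3.58.1 (voom, and voom with library quality weights), RLE factors, other filters, no block, the control arm alone, and leaving out horses. The members, gene rule and lists were chosen with earlier results of these data known. The rule named the genes past the threshold with and without horses 2 and 11, averaging a log2 CPM of 2 or more over control libraries and the same direction in 8 of 8 horses, taking the 2 largest rises and 2 largest falls. Planned gene lists needed symbols and were not used here. Only the edgeR test of the control change was tried on simulated data, and its outcome is not given here. Counts of 0 and limits of 3 counts cover counting error only, since no molecular identifiers are stated.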

Additional observations from a re-analysis of the deposited data

Results flagged for a closer look

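In 14 groups of 8 control values (total counts, genes detected, distance from the group and the levels of the 4 named genes, at each week), 3 had a highest value set apart by a wide gap, and chance marks about 1 in 20 such groups if values spread normally, which was not checked for these CPM values of genes chosen for large changes. The distance of the week 0 library of horse 9 from its group was 0.489, against 0.251 to 0.329 in the others. This library also had the lowest week 0 total, 23088448 counts, and the highest share of counts in its 10 most abundant genes, 21.0%. ENSECAG00000004158 stood at 10.7 CPM in horse 2 at week 0, against 0 to 1.92 CPM in the others. ENSECAG00000053056 stood at 77.8 CPM in horse 15 at week 10, against 5.85 to 20.8 CPM. Where a pair of libraries is low together, as are the genes detected in horses 2 and 11, each hides the other from this comparison.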

How the results depend on the processing

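The setting without control horses 2, 9 and 11, and the restriction of left-out shares to abundant 2-fold genes, were chosen after seeing the data. Each of the 4 named genes kept its direction and stayed under the threshold in all 19 settings run, which their choice makes likely. The count of 1700 changed genes was 3209 with DESeq2, 2729 with library quality weights, 755 with the control arm alone and 994 with that arm alone without horses 2 and 11. It ran from 1017 (without horse 15) to 2025 (without horse 11) when each horse was left out, and was 2445 without horses 2, 9 and 11. The fit of the arm alone had fewer libraries, and for the other settings the cause was not tested. Of the 1700 genes, 745 were also called with the arm alone. Without the replicate block the count was 2070, of which 1496 were shared, and rises made up 55.6% of it. The count of genes that differed between the arms was 12 with DESeq2 and 1 without the block, and 0 to 0 when each horse was left out. Genes detected moved from -715 to 639 without horses 2 and 11, and ran from -998 to -125 over single horses. The distance from the group was 0.121 without horses 2 and 11, with the distances measured anew. It ran from 0.228 to 0.371 over single horses, which were left out of the test but kept in the group medians. The adjusted p (sign-flip permutation) was then 0.0938 for all but horse 9, where it was 0.0469. These p-values are approximate, since the distances are not independent. Precision was lowest for the least abundant genes, with a median standard error of 1.03 under a mean log2 CPM of 0, and the part of depth in this was not tested.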
